A study of Rattus norvegicus with 6 samples.

Results

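Heat shock proteins and DnaJ proteins were followed in skeletal muscle of newborn lower birth weight (LBW) and average birth weight (ABW) rat pups. The members were chosen by name alone, as the genes with a symbol starting with Hspa, Hspb, Hspd, Hspe, Hsph, Dnaja, Dnajb or Dnajc and a digit, or with Hsp90. They were 45 of the 26299 features tested, and they came from 46 of the 26419 rows of the array, because *Dnaja3* has 2 rows, which were averaged. *Dnajc28* had already been listed by the study from these same arrays, so its fall is given as a description and not as independent evidence. The study also measured *Dnajc28* by quantitative PCR in the same RNA samples, and reported a fall there too. A further 30 protein-coding symbols of these families had no row with a matched accession and were not analysed here, among them *Hspa1b*, *Hspa9*, *Hspb7*, *Dnajb1* and *Dnajb2*.

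The muscle came from 3 LBW and 3 ABW pups, which were untreated male Wistar rats aged 1 day, with 1 single-dye NimbleGen array per pup. The LBW pups lay in percentiles 5 to 25 of birth weight. For the ABW pups, the treatment protocol gives percentiles 50 to 75, whereas the characteristics of the same samples give 25 to 75. The sources used here do not give the litter of each pup, so p-values measure the spread between these 6 animals, some of which could be littermates. Each value is a log2 signal, and a log2 fold change is the LBW mean minus the ABW mean. Values of different genes were not set against each other, since their probes differ. Linear signals of marker genes were summed within a list, where bright probes weigh most, and such sums were compared only between pups.

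Chaperones help other proteins to fold, to assemble and to avoid clumping. Hsp70 proteins (the Hspa genes) bind unfolded stretches in a cycle driven by ATP, and DnaJ proteins (Dnaja, Dnajb and Dnajc) deliver clients to them and start ATP hydrolysis through their J domain. Hsp110 (Hsph) resets Hsp70, Hsp90 matures kinases and receptors, Hspd1 with Hspe1 forms the folding chamber of mitochondria, and small heat shock proteins (Hspb) hold unfolding proteins in solution without ATP. Muscle is rich in small heat shock proteins, which protect the filaments and Z-discs of the contractile apparatus.

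Most chaperone genes differed little between LBW and ABW muscle. A call here means an unadjusted p under 0.05 by limma with a fold change of at least 1.5. By this rule, 2 members were lower in LBW (*Dnajc28* and *Dnajc22*) and 1 was higher (*Dnaja4*), so that 3 of 45 (6.67%) were called. Over all 26299 features, 4.27% were called, 1.89% lower and 2.38% higher in LBW. With the p alone, 5 members (11.1%) passed, compared to 12.4% of all features, and none of the 45 had an adjusted p under 0.05 by limma, nor did any other feature (0% of all). The median log2 fold change was 0.03 over the members and -0.02 over all features. The fold change stayed under 1.2 in either direction for 38 members (84.4%, against 76% of all features). For 36 members (80.0%) the whole 95% confidence interval lay inside 1.5-fold in both directions, which was the case for 66.6% of all features. The median spread within a group was 0.15 (SD) for the members and 0.16 for all features.

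**Figure D1:**
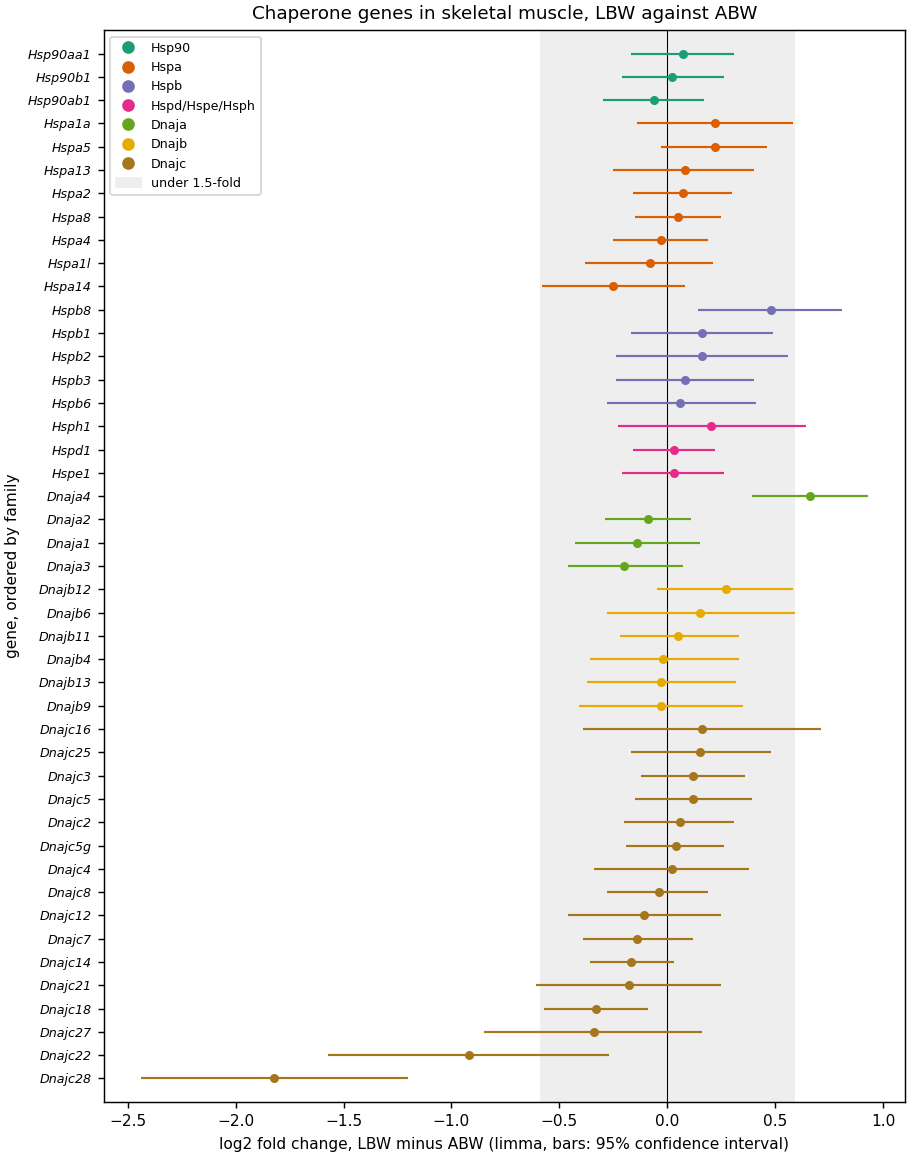
Log2 fold change of LBW over ABW (x axis) for each of the 45 chaperone genes (y axis, ordered by family), with bars for the 95% confidence interval by limma and a grey band for changes under 1.5-fold. *Dnajc28* at -1.82 and *Dnajc22* at -0.92 lie to the left of the band and *Dnaja4* at 0.66 to its right, while 36 intervals are wholly inside it.

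Of the DnaJ genes, *Dnajc28*, a type C member outside the classical type A and type B cochaperones, had the largest difference of all 45 members. It was at 6.42, 7.38 and 7.26 in LBW 1, 2 and 3 and at 8.70, 8.83 and 8.99 in ABW 1, 2 and 3. Every LBW pup lay at least 1.32 below every ABW pup, with LBW 1 the lowest. The LBW mean was 7.02 ± 0.52 (SD, n = 3), and the ABW mean was 8.84 ± 0.14 (SD, n = 3). *Dnajc28* fell by 1.82 on the log2 scale (SE 0.26), which makes the ABW signal 3.53 times the LBW signal. The adjusted p was 0.214 by limma, and the exact permutation test gave a 2-sided p of 0.1, the smallest that 3 pups against 3 allow. With any single pup left out, the log2 fold change stayed between -2.00 and -1.52 and past the unadjusted rule. It was the only member called at a fold change of at least 2, which 0.312% of all features passed as lower and 1.27% in either direction.

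*Dnajc22*, a DnaJ protein with several membrane-spanning stretches, was the other member called as lower. The LBW pups were at 7.48, 7.64 and 7.65, and the ABW pups were at 7.86, 8.91 and 8.76. The groups did not overlap, but ABW 1 lay only 0.21 above the highest LBW pup, so that ABW 2 and ABW 3 carried most of the difference. Adipocyte markers were likewise low in ABW 1 among the ABW pups. The mean difference of the 11 markers with a row from their ABW mean was -0.52, 0.35 and 0.17 in ABW 1, 2 and 3 and -0.32, -0.36 and -1.21 in LBW 1, 2 and 3, and their part in the difference of *Dnajc22* was not tested. The log2 fold change was -0.92 (limma SE 0.27, adjusted p = 0.305), with an ABW signal 1.89 times that of LBW. By the methods' t-test on the same values *Dnajc22* was not called (unadjusted p = 0.0504), whereas *Dnajc28* was.

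*Dnaja4*, a heat-inducible type A DnaJ protein that works with Hsp70, was the member called as higher. LBW 1, 2 and 3 were at 9.37, 9.43 and 9.33, and ABW 1, 2 and 3 at 8.80, 8.51 and 8.83. The LBW pups lay close together (SD 0.05) and each was at least 0.50 above every ABW pup. The log2 fold change was 0.66 (limma SE 0.11, adjusted p = 0.214), a fold change of 1.58. Without ABW 2 the log2 fold change was 0.56, which is short of 1.5-fold, and no member was then called as higher. The remaining type A genes, whose proteins are the general Hsp70 partners of the cytosol (*Dnaja1*, *Dnaja2*) and of mitochondria (*Dnaja3*), had log2 fold changes of -0.14, -0.09 and -0.20. The 2 rows of *Dnaja3* gave -0.30 (SE 0.16) and -0.10 (SE 0.10).

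**Figure D2:**
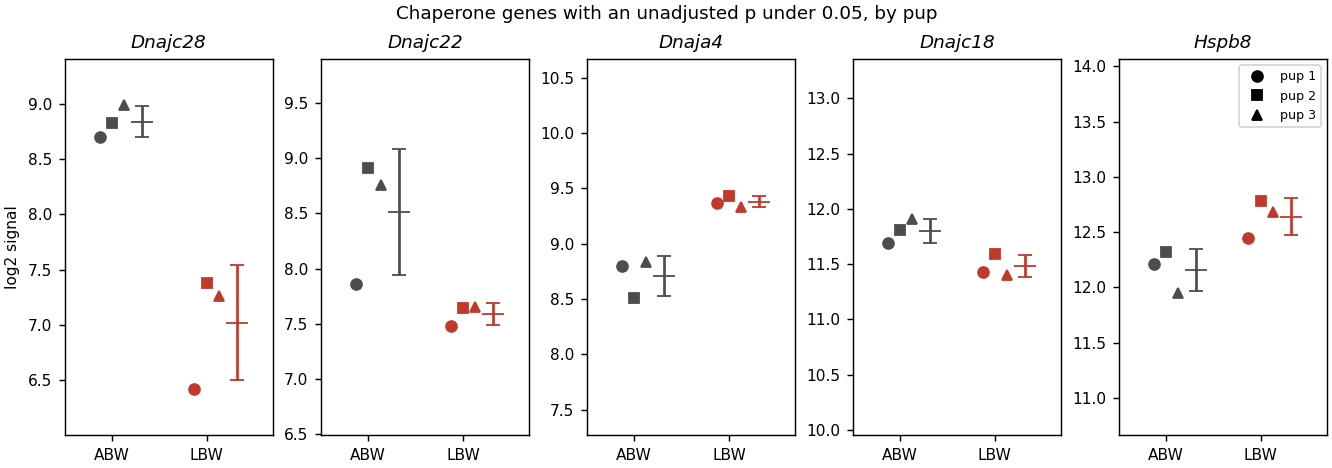
Log2 signal (y axis) of each pup for the 5 chaperone genes with an unadjusted p under 0.05 by limma, with ABW in grey and LBW in red, marker shapes for pups 1, 2 and 3, and bars for mean ± SD. Each panel spans the same range of log2 units, and in each the LBW pups all lie on one side of the ABW pups, with the widest gap (1.32) in *Dnajc28*.

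Among the other type C genes the differences were small. *Dnajc18*, which encodes a J protein of the endoplasmic reticulum membrane, was at 11.43, 11.59 and 11.40 in LBW 1, 2 and 3. In ABW 1, 2 and 3 it was at 11.69, 11.81 and 11.91. All LBW pups were thus below all ABW pups, by 0.10 at the nearest, and the log2 fold change of -0.33 (limma SE 0.10, adjusted p = 0.310) did not reach 1.5-fold. Without ABW 3 the unadjusted p of *Dnajc18* was 0.0517 by limma. The LBW and ABW values also did not overlap for *Dnajc14* (-0.17), another J protein of that membrane, and for *Dnajc7* (-0.14), a cochaperone that binds both Hsp70 and Hsp90, where the nearest pups of *Dnajc7* differed by less than 0.01. In the 15 type C genes without *Dnajc28*, the log2 fold change ran from -0.92 to 0.16 with a median of -0.04, and 7 were higher and 8 lower in LBW. Their largest positive value was that of *Dnajc16* (0.16, SE 0.23), whose groups overlapped. The 6 type B genes ran from -0.03 (*Dnajb9*, SE 0.16) to 0.27 (*Dnajb12*, SE 0.13), and none was called.

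Over all 45 members, LBW and ABW pups did not overlap in 5 lower genes (11.1%, against 10.1% of all features) and in 3 higher genes (6.67%, against 7.27%). The 5 lower genes were *Dnajc28*, *Dnajc22*, *Dnajc18*, *Dnajc14* and *Dnajc7*. That all of them are of type C was seen only in the values. The 3 higher genes were *Dnaja4*, *Hspb8* and *Hspa5*. Of these genes, *Dnajc14*, *Dnajc7* and *Hspa5* were named after their values were seen. Both shares were near those of all features.

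**Figure D3:**
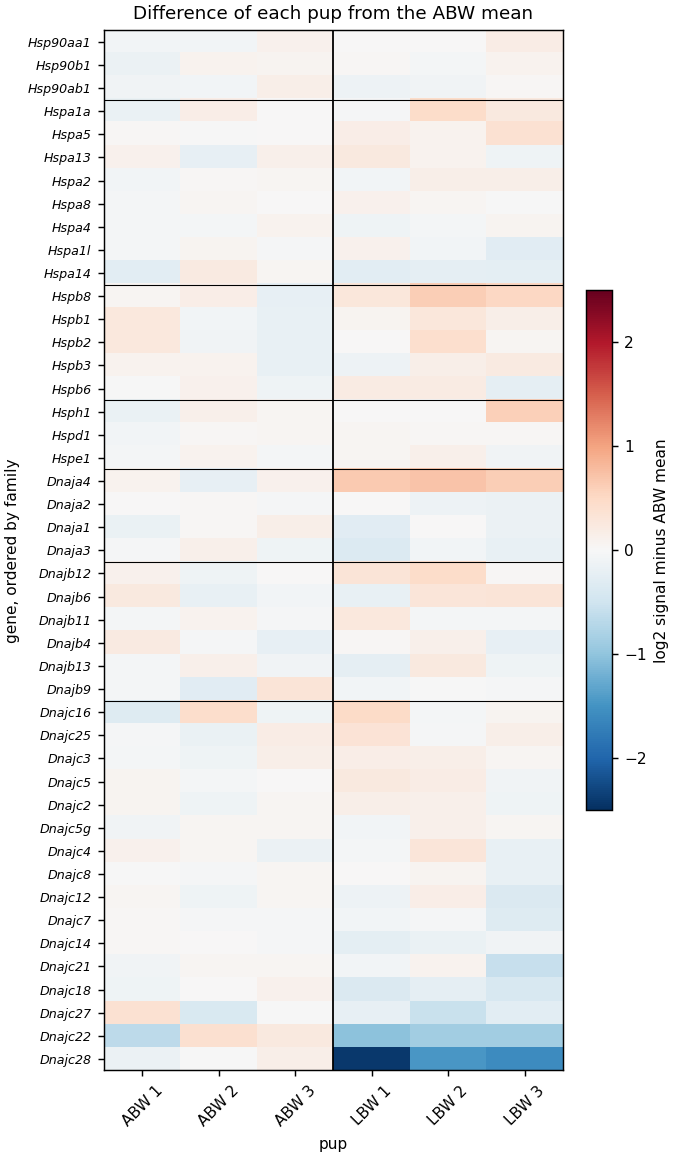
Difference of each pup (x axis) from the ABW mean in log2 signal (colour scale) for the 45 chaperone genes (y axis, ordered by family, with lines between families). The blue cells of *Dnajc28* in the 3 LBW pups are the strongest of the map, *Dnajc22* is lower in the LBW pups and partly so in ABW 1, and *Dnaja4* is higher in the 3 LBW pups.

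None of the 8 Hsp70 genes was called, and the whole 95% interval lay inside 1.5-fold for each of them. *Hspa8*, the constitutive Hsp70 of the cytosol, was at 14.66, 14.60 and 14.53 in LBW and at 14.49, 14.59 and 14.55 in ABW pups, a log2 fold change of 0.05 (95% interval -0.15 to 0.25). The stress-inducible *Hspa1a* had a log2 fold change of 0.22 (95% interval -0.14 to 0.58), with LBW values between 8.73 and 9.21 that overlapped those of ABW at 8.60, 8.92 and 8.76. Its near-identical neighbour *Hspa1b* could share signal with the probes of *Hspa1a*, which was not tested. *Hspa14*, the Hsp70 that acts at the ribosome, had the most negative value of the family (-0.25, SE 0.14), and its groups overlapped. *Hspa5*, the Hsp70 of the endoplasmic reticulum known as BiP, was at 14.20, 14.13 and 14.42 in LBW and at 14.05, 14.02 and 14.03 in ABW pups. All LBW pups were above all ABW pups, by 0.08 at the nearest, with a log2 fold change of 0.22 (limma SE 0.10, adjusted p = 0.454).

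The Hsp90 genes had the narrowest range. The log2 fold change was 0.07 for *Hsp90aa1*, the stress-inducible form, -0.06 for *Hsp90ab1*, the constitutive form, and 0.02 for *Hsp90b1*, the form of the endoplasmic reticulum, each with a standard error of 0.10. The mitochondrial pair *Hspd1* and *Hspe1* had 0.03 each (SE 0.08 and 0.10). For *Hsph1*, the Hsp110 of the cytosol, LBW 3 stood at 12.32, while LBW 1 (11.74) and LBW 2 (11.75) were within the ABW values of 11.57 to 11.86. Its log2 fold change of 0.20 (SE 0.18) thus came from LBW 3, and it was 0.01 without that pup.

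The small heat shock proteins were compared with the remaining members. All 5 with a row were higher in LBW on average, with a median log2 fold change of 0.16, against 0.02 for the other 40 members, of which 21 were higher and 19 lower, and -0.02 for all features, of which 44.4% were higher. None of the 5 was called at 1.5-fold. The mean difference of the 5 genes from the ABW mean was 0.09, 0.33 and 0.14 in LBW 1, 2 and 3 and 0.13, 0.04 and -0.18 in ABW 1, 2 and 3, so that ABW 1 lay above LBW 1. The median of the 5 genes varied between pups of a group by 0.139 (SD), which is about as large as the difference. With single pups left out, the median of the 5 genes stayed positive, from 0.05 to 0.29, while *Hspb6* (without LBW 1 or without LBW 2) and *Hspb3* (without ABW 3) turned to -0.01.

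*Hspb8*, which with the cochaperone Bag3 and Hsp70 directs damaged filament proteins of muscle to autophagy, accounted for the largest difference of the 5. It was at 12.45, 12.78 and 12.68 in LBW 1, 2 and 3, and at 12.21, 12.32 and 11.95 in ABW 1, 2 and 3. Every LBW pup was above every ABW pup, by 0.13 at the nearest. The log2 fold change was 0.48 (limma SE 0.14, adjusted p = 0.302), a fold change of 1.39, and with each pup left out in turn it stayed between 0.37 and 0.57. *Hspb1* (Hsp27), the most widely expressed small heat shock protein, was at 14.23, 14.45 and 14.31 in LBW and at 14.43, 14.10 and 13.98 in ABW pups, so that ABW 1 was within the LBW values. Its log2 fold change was 0.16 (SE 0.14). The muscle-enriched partners *Hspb2* and *Hspb3*, whose proteins form a complex, had 0.16 (SE 0.17) and 0.08 (SE 0.13), and *Hspb6* (Hsp20), which binds actin regulators, had 0.06 (SE 0.14). These 4 genes overlapped between the groups. *Cryab*, the αB-crystallin, is a small heat shock protein with another symbol, and had 0.09 (SE 0.11) with overlapping groups. *Cryaa*, its lens counterpart, was at 5.80, 6.32 and 6.48 in LBW and at 6.85, 6.56 and 6.99 in ABW pups. This is a log2 fold change of -0.60 (limma SE 0.20, adjusted p = 0.338), which was past the rule by a narrow margin and not so without LBW 1, without ABW 1 or without ABW 3.

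**Figure D4:**
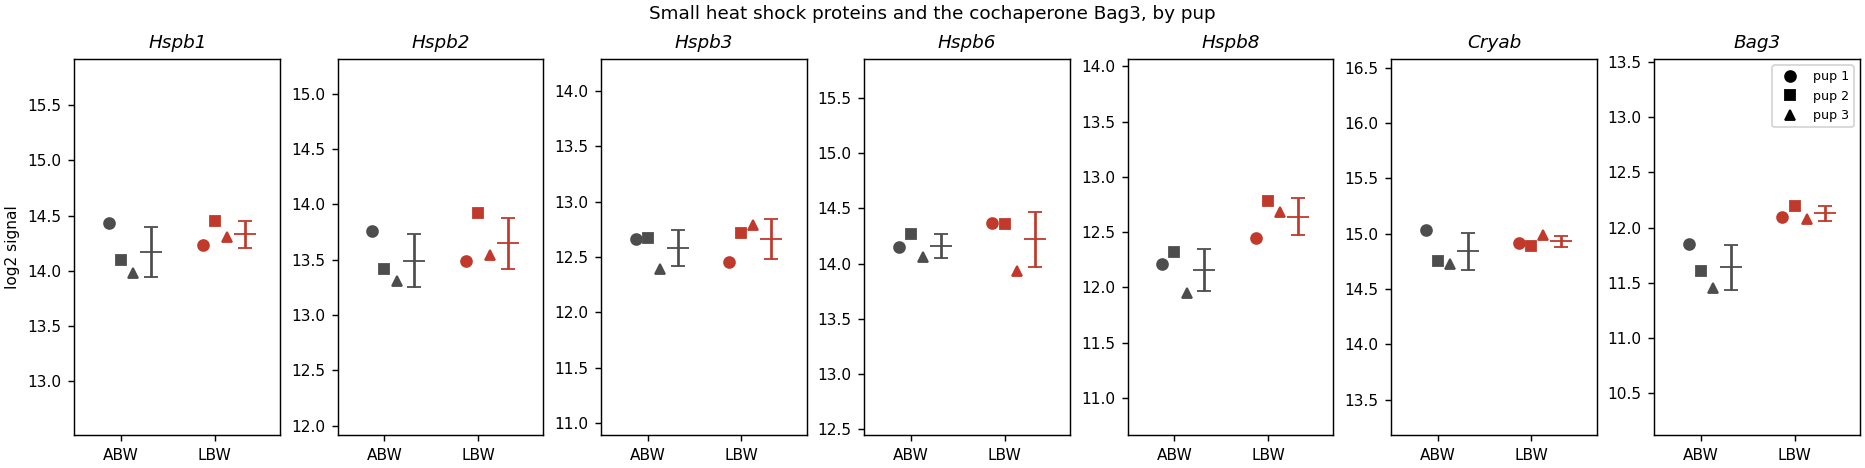
Log2 signal (y axis) of each pup for the 5 small heat shock proteins, *Cryab* and the cochaperone *Bag3*, with ABW in grey, LBW in red, marker shapes for pups 1, 2 and 3, and bars for mean ± SD. Each panel spans the same range of log2 units, and the LBW pups lie clear of the ABW pups only in *Hspb8* (nearest pups 0.13 apart) and *Bag3* (0.23 apart).

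Other genes of the folding machinery were read from lists that hold no member. Of 27 listed cochaperones, 17 had a row, of which 14 were higher and 3 lower in LBW (median log2 fold change 0.11), and none was called at 1.5-fold. Their mean difference from the ABW mean was 0.17, 0.20 and 0.03 in LBW 1, 2 and 3. In ABW 1, 2 and 3 it was 0.01, 0.05 and -0.06, so that LBW 3 lay below ABW 2. With the p alone, 3 cochaperones passed, all higher, where 5.63% of all features passed as higher. *Bag3*, the partner of Hspb8, was at 12.10, 12.20 and 12.08 in LBW and at 11.85, 11.61 and 11.45 in ABW pups. All LBW pups were at least 0.23 above all ABW pups, with a log2 fold change of 0.49 (limma SE 0.12, adjusted p = 0.275), or 1.40-fold. The other 2, named after their values were seen, were *Hspbp1* (0.38, limma SE 0.09, adjusted p = 0.269), which exchanges the nucleotide of Hsp70, and *Bag6* (0.36, limma SE 0.11, adjusted p = 0.315), which handles stray membrane proteins. The unadjusted p by limma was 0.0558 for *Hspbp1* with an intensity trend and 0.0554 for *Bag6* without LBW 2.

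Of the 15 genes with a row among those of folding and stress signalling in the endoplasmic reticulum, 11 were higher and 4 lower, with a median of 0.10, and none was called. Their mean difference from the ABW mean was 0.07, -0.02 and 0.02 in LBW 1, 2 and 3. In ABW 1, 2 and 3 it was -0.04, 0.02 and 0.02, so that the groups overlapped. The 2 with an unadjusted p under 0.05 were lower in LBW, where 6.73% of all features passed as lower. *Ddit3* (CHOP), a transcription factor induced by prolonged stress of this compartment, was at 9.42, 9.48 and 9.20 in LBW and at 9.68, 9.89 and 9.99 in ABW pups. Its log2 fold change was -0.48 (limma SE 0.12, adjusted p = 0.276), and the groups did not overlap. *Sil1*, which exchanges the nucleotide of Hspa5 and was named after its value was seen, had -0.33 (limma SE 0.11, adjusted p = 0.338). The unadjusted p of *Sil1* by limma was above 0.05 without LBW 1, LBW 3, ABW 2 or ABW 3, and also with an intensity trend (0.074). In the cytosolic chaperonin and prefoldin list, 4 of 8 genes were higher and 4 lower (median 0.02), with *Cct5* moving most (0.12, SE 0.08). In the mitochondrial list, 4 of 7 were higher and 3 lower (median 0.01), with the disaggregase *Clpb* moving most (0.24, SE 0.12). Among the heat shock factor genes, *Hsbp1*, which encodes a binding partner of the heat shock factor Hsf1, had 0.20 (SE 0.09) and *Hsf2* had 0.07 (SE 0.09). None of the genes of these last lists had an unadjusted p under 0.05, and *Hsf1* itself was not analysed here.

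Heat shock factors bind inverted repeats of the unit GAA, and the promoters show which members carry them near their start. The 250 bases before the gene start were read from RefSeq (assembly GRCr8) for the 37 of 45 members with an entry, and were set beside all 33469 windows of that length. Those windows were not selected by gene type or by presence on the array, which limits the comparison of shares. Each motif was searched on both strands. GAANNTTC was found in 11 of the 37 windows (29.7%) and in 7.23% of all windows, and TTCNNGAA was found in 7 (18.9%) and in 7.48%. Both motifs joined into 3 alternating units, so that GAANNTTC and TTCNNGAA share a unit, were found in 10.8% of the members' windows, against 0.663%. The windows that held them were those of *Hspa8*, *Hspd1*, *Hspe1* and *Hsph1*. Those of *Hspd1* and *Hspe1* overlap on opposite strands, and both count in each of these shares. The endoplasmic reticulum stress element, CCAAT followed after 9 bases by CCACG, was found in the windows of *Hspa5*, *Hsp90b1* and *Dnajc3* (8.11%, against 0.0657%). These windows are shown because they belong to the member that fell most, the small heat shock protein that differed most, and a typical member with each kind of motif. Capitals mark every match to these motifs.
Dnajc28 (chr11:44344349-44344598, minus strand): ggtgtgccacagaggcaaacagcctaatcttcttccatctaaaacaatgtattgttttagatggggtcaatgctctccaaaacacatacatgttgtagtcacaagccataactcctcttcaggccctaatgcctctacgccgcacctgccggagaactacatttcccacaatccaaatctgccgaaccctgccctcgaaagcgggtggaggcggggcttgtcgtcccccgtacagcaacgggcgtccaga
Hspb8 (chr12:45837058-45837307, plus strand): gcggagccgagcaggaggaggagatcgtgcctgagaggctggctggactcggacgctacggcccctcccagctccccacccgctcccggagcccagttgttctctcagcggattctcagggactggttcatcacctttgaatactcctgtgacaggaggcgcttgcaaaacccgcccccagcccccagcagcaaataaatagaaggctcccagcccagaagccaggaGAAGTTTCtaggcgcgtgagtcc
Hspa8 (chr8:50080264-50080513, plus strand): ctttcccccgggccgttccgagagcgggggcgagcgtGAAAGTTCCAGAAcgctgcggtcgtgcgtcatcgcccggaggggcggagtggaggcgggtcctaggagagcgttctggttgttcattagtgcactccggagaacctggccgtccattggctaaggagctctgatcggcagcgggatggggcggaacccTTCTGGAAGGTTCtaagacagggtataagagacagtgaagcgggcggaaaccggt
Hspa5 (chr3:38452766-38453015, plus strand): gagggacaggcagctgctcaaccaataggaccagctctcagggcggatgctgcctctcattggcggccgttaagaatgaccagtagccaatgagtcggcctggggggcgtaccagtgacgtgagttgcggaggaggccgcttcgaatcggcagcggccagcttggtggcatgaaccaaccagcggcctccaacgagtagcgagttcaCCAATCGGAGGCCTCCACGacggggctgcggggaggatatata

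The window of *Dnajc28* holds none of these letters, that of *Hspb8* holds GAANNTTC near the start, *Hspa8* holds the 3 alternating units at 2 places, and *Hspa5* holds the stress element. The 13 members with either inverted pair had a median log2 fold change of 0.05, against 0.02 for the 24 without. The 3 members with the stress element had log2 fold changes of 0.22 (*Hspa5*), 0.02 (*Hsp90b1*) and 0.12 (*Dnajc3*). Of the members called, *Dnajc28* and *Dnaja4* had a window without any of these motifs, and *Dnajc22* had no entry. The matches are a description of letters in a window, not of binding.

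The tissue was checked against marker genes. Of 15 skeletal muscle markers, 10 had a row and none was called, and their mean difference from the ABW mean lay between -0.03 and 0.05 in all 6 pups. *Acta1*, the actin of skeletal muscle, was between 15.15 and 15.41, near the array maxima, which were 15.178 to 15.493. Whether signals this bright can still show a change in muscle content was not tested. The summed linear signal of the 10 markers was between 235866 and 251523 in LBW and between 237380 and 248523 in ABW pups. Markers of other tissues did move. Of 10 bone markers with a row, 6 were called higher in LBW, and their mean difference from the ABW mean was 3.02, 0.51 and 3.91 in LBW 1, 2 and 3. Their summed linear signal was between 4548 and 58042 in LBW and between 2388 and 2891 in ABW pups. Of 6 cartilage markers, 1 was called higher (mean difference 1.19, -0.12 and 1.98 in LBW 1, 2 and 3), and of 6 neutrophil markers, 4 were (1.96, 0.83 and 1.60). Of 5 erythroid markers none was called. Of the 11 adipocyte markers, 10 were lower in LBW and 2 were called, and ABW 1 (-0.52) lay below LBW 1 (-0.32) and LBW 2 (-0.36) in their mean difference. Their summed linear signal was between 46310 and 62192 in LBW and between 58036 and 84696 in ABW pups. The 2 called were *Lep*, the hormone leptin, and *Pparg*, the main transcription factor of fat cells. *Lep* was at 5.91, 5.96 and 5.75 in LBW and at 6.05, 8.09 and 8.18 in ABW pups, and *Pparg* was at 9.12, 8.86 and 8.70 in LBW and at 9.26, 10.60 and 10.42 in ABW pups. In both, as in *Dnajc22*, ABW 1 was the ABW pup nearest to the LBW pups. In whole muscle, fewer cells of a type and less RNA per cell cannot be told apart. LBW 2, whose bone markers were nearest to the ABW pups, was also the LBW pup nearest to them for *Dnajc28*. It was at 7.38 for that gene, a difference of -1.45 from the ABW mean. LBW 3, with the largest bone mean difference (3.91), was at 7.26 for *Dnajc28*, and LBW 1 (3.02) was lower, at 6.42. For *Dnaja4*, LBW 2 was at 9.43 and for *Hspb8* at 12.78, each the highest of the 6 pups. *Dnajc22* was at 7.64 in that pup. Bone and neutrophil markers were above their ABW mean in LBW 2 too, and the part of the bone, cartilage, neutrophil and adipocyte markers in these differences was not tested.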

How the data were processed

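The authors hybridized muscle RNA of 6 pups to NimbleGen rat arrays with 5 probes for each of 26419 transcripts, and deposited log2 signals that they had normalized in R with Bioconductor and scripts of their own. The submitters' processing notes name RMA, which corrects background, equalizes arrays and summarizes probes. Version and settings are not given in the sources used here. These steps shrink differences between arrays, and the values carry no detection call, so how far a dim signal lies above background is unknown. Array medians were 8.695 to 8.757.

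Rows were named through RefSeq transcripts of the assembly GRCr8 (9747 rows, 36.9%), and rows of a symbol were averaged. The test over all 26299 features was that of limma (version 3.58.1, run in R 4.3.3, 2-sided, Benjamini-Hochberg adjustment over all features), after a test on simulated data. The call rule follows the study's methods (unadjusted p under 0.05, fold change at least 1.5). Exact permutation tests used scipy 1.17.1. The number of arrays limits the precision.

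The members and lists were chosen with earlier results of these data known. Genes named are *Dnajc28*, all small heat shock proteins, members with an unadjusted p under 0.05, the largest rise and fall of each family, and for each list the called genes and the one that moved most. Others, among them *Hspa5*, *Dnajc14*, *Dnajc7*, *Hspbp1*, *Bag6*, *Sil1* and *Cryab*, were added outside these rules. The alternatives tried were a replicate block, each pup left out, quantile normalization, median centring, leaving out the dimmest 25% of features, an intensity trend, robust variance, array weights, the methods' t-test, each row alone, and other fold change criteria.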

Additional observations from a re-analysis of the deposited data

How the results depend on the processing

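No alternative was added after the data were seen. The count of members called as lower in LBW was 2, except by the methods' t-test (1) and at a 2-fold criterion (1), which leave *Dnajc28*, and with no fold change criterion (3, with *Dnajc18*). The count of those called as higher was 1, except at a fold change of at least 2 (0) and with no fold change criterion (2, with *Hspb8*). Leaving out any pup gave a count as lower of 2 each time, and the count as higher lay between 0 (without ABW 2) and 1. *Dnajc28* kept its direction and its call under every alternative. The medians of all members, of the small heat shock proteins and of the other members moved by less than the spread between pups under each alternative, and with a pup left out they lay between -0.01 and 0.04, 0.05 and 0.29, and -0.02 and 0.03. Among the other genes named, 7 values changed sign, all of genes that were not called. *Dnajb9* was at 0.00 with array weights, and with single pups left out it ran from -0.18 to 0.13, *Dnajc16* from -0.00 to 0.37, *Hsp90ab1* from -0.11 to 0.01, *Hspb3* from -0.01 to 0.18 and *Hspb6* from -0.01 to 0.21. *Cryaa* also lost its call under quantile normalization (-0.58) and by the methods' t-test. The cause of these changes was not tested. Pups with the same replicate number had deviations from their group means that correlated at 0.087, 0.103 and 0.055. These values cannot show whether such pups were paired, because the litters are not known. With the replicate block, 2 members were called as lower and 1 as higher, *Dnajc28* was at -1.82, and the medians were 0.03, 0.16 and 0.02. The dimness of a signal could not be judged, which limits what *Cryaa*, *Dnajc5g* and *Dnajb13* show, and also the size of the fold change of *Dnajc28*, with LBW 1 at 6.42.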
